A study of Saccharomyces cerevisiae with 27 samples.

Results

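A group of genes that make or import inositol, or that control those steps, was followed in budding yeast, Saccharomyces cerevisiae, through 5 comparisons of membrane lipid composition or oxygen supply. They were taken by gene name from the authors' deposited table, where 9 of 9 were found among 6709 genes, and 8 of them are described here. INO1 and INM1 belong to inositol synthesis, ITR1 and ITR2 to uptake, and INO2, INO4, OPI1 and SCS2 to control. The study sequenced poly-A selected RNA from 27 libraries in 9 groups of 3, which the submitters call biological replicates, and all groups share the S288C strain label and growth in CSM medium. No label or header states the inositol content of that medium.

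The groups were as follows. OLE1met0 and OLE1met250 carried an integration that places OLE1, the acyl-CoA desaturase gene, under the methionine-repressed MET3 promoter, with high unsaturation of membrane lipids intended in the first and low in the second. The treatment label of OLE1met250 reads 0 uM methionine (repressed), whereas the table header says that methionine was present, so the group is named here by its title. An effect of methionine itself and one of the intended change in lipid unsaturation cannot be told apart in this pair, and OLE1 itself was not called in it (log2 -0.03, q 0.925). The groups spt23p90 and mga2p90 carried the tetracycline-repressible plasmid pCM188 with the processed fragment of SPT23 or of MGA2, membrane-anchored activators of OLE1, and were grown without doxycycline. Their references, spt23p90-dox and mga2p90-dox, carried the same plasmids with the drug, so that fragment and drug cannot be told apart. BY was the aerobic BY4742 background strain, ArgonST the same strain after 90 min under argon, and ArgonLT the same strain grown for long under hypoxia in a microfermenter, so that vessel and oxygen cannot be told apart. ArgonST and ArgonLT share BY as their reference.

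Inositol is made from glucose 6-phosphate by inositol 3-phosphate synthase, the product of INO1, followed by a monophosphatase, and it is used to build phosphatidylinositol and other lipids. In yeast the basic helix-loop-helix proteins Ino2 and Ino4 bind together to a promoter element of many phospholipid genes and activate them when inositol is scarce. Opi1 represses these genes. It is held at the endoplasmic reticulum by phosphatidic acid and by Scs2, and moves to the nucleus when inositol is supplied and phosphatidic acid is used up.

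The sequences shown first are the promoter elements by which the 8 genes differ. The element was searched as the letters CATGTGAA on both strands, which hold the core CATGTG of the Ino2-Ino4 binding site, in the 300 bases before each start codon in the RefSeq R64 genome. It was present in 4 of the 8 genes, INO1, ITR1, INO2 and INO4, with 6 matches in all, and in none of INM1, ITR2, OPI1 and SCS2. Among 6009 genes of the table with such a window, 53 (0.882%) held it. A match is a description of letters and not evidence of binding. Only this exact spelling was counted, so a gene without a match may still hold another form of the site. Each of the 6 matches lies between coding sequences in the RefSeq annotation. Each is printed with 10 bases on each side, read on the strand on which the element, in capitals, runs forward.
INO1 distal, chrX:136159-136186, minus strand: ctaaatgcggCATGTGAAaagtattgtc
INO1 proximal, chrX:136096-136123, plus strand: ttctctgctcCATGTGAAttaaataagt
ITR1 distal, chrIV:1445734-1445761, plus strand: atacctaacgCATGTGAAgagaacagaa
ITR1 proximal, chrIV:1445671-1445698, minus strand: ttccccaccgCATGTGAAaaaagctcga
INO2, chrIV:699595-699622, minus strand: gtacaacacaCATGTGAAtttttttcag
INO4, chrXV:111992-112019, plus strand: gtgagaaaaaCATGTGAAtattttgttt

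INO1 and ITR1 each held 2 matches, in opposite orientations, and in both genes the first bases of the pair lay 63 bases apart. The INO1 matches began 243 and 180 bases before the start codon and those of ITR1 284 and 221 bases before it. INO2 and INO4 held 1 match each, beginning 144 and 123 bases before the start codon. In INO2 the core overlaps its own reverse complement, so that 2 overlapping core matches count as 1 place. The INO4 match also lies in the window of YOL107W, which is transcribed away from INO4, and the INO4 window shares 85 bases with the YOL107W coding sequence.

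The whole window is shown for INO1, the member with the largest changes, and for the paralogous transporters ITR1 and ITR2, which differ in the element. Capitals mark the element as it reads on the gene's strand, where an opposite match appears as its reverse complement TTCACATG.
INO1, chrX:135934-136233, minus strand: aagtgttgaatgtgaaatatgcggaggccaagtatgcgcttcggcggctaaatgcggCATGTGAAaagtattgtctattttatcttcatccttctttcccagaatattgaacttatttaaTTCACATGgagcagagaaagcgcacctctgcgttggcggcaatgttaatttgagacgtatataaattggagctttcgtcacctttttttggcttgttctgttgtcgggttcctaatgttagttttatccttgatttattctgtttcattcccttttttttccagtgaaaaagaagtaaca
ITR1, chrIV:1445468-1445767, minus strand: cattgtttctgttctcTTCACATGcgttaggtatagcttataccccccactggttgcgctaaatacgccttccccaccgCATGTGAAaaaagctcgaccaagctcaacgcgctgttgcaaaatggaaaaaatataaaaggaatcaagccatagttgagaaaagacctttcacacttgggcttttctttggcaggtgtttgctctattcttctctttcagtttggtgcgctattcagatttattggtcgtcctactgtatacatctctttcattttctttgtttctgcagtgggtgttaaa
ITR2, chrXV:123701-124000, plus strand: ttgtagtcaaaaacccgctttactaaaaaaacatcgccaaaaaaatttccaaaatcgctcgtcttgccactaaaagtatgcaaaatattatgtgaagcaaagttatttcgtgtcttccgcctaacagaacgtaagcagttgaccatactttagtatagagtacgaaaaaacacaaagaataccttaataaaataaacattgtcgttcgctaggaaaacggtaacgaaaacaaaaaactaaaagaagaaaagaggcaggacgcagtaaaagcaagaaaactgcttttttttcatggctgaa

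Other short motifs were searched in the same windows. The letters GCCGCC, the core of the URS1 element bound by the repressor Ume6, occurred on either strand in INO1, at 2 places beginning 258 and 146 bases before the start codon, and in INO4, beginning 31 bases before it, against 5.21% of all windows. The letters ACTCAA, the start of the low-oxygen response element through which Mga2 acts on OLE1, occurred in none of the 8 windows, against 15.1% of all. In the 600 bases before the start codon ACTCAA occurred in INO2 and OPI1, against 28.0% of all. The absence of these letters says nothing of a factor's binding.

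**Figure D1:**
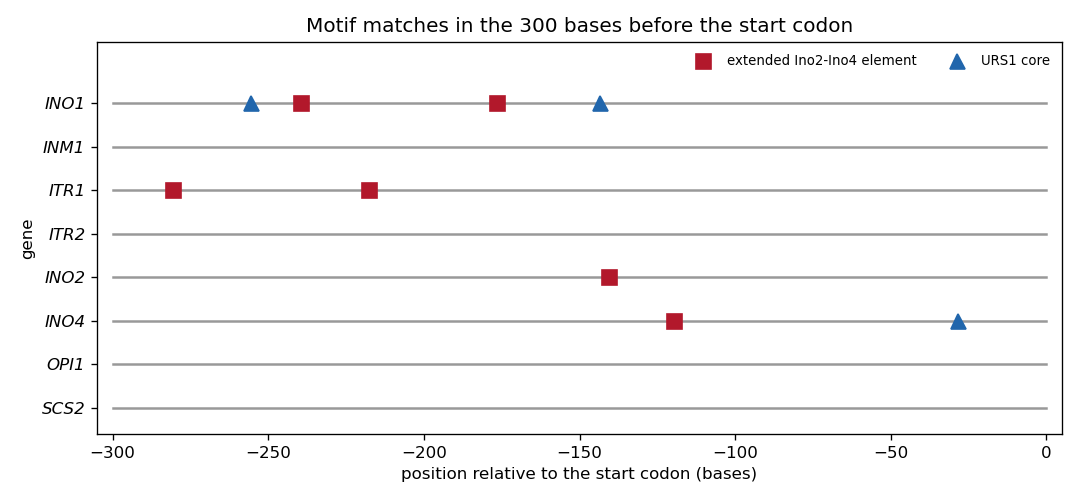
Matches to the extended Ino2-Ino4 element (red squares) and to the URS1 core (blue triangles) in the 300 bases before the start codon of the 8 genes. The x axis is the position relative to the start codon in bases and each grey line is the window of 1 gene. INO1 and ITR1 hold 2 elements each, INO2 and INO4 hold 1 each, and the other 4 windows hold none.

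All values that follow are log2 ratios of each group over its reference and q values, that is p values adjusted for false discovery, from the authors' deposited table made with Cuffdiff. That table gives 1 value per gene and comparison. It holds no expression level, no value per library and no standard error, so the depth is unknown, the spread between replicates enters only through q, and values are printed without SD or n. The words rose and fell are kept for genes with a q under 0.05. The lowest q is 0.000304 and is shared by many genes, so it does not rank them. The median log2 ratio of all tested genes lay between -0.04 and 0.09 in the 5 comparisons. As a check of the labels, SPT23 and MGA2 rose where their fragments were expressed (2.55 and 3.73). MGA2 also rose in OLE1met250, by 4.33, and in ArgonLT, by 2.23, and it fell with the SPT23 fragment (-1.46, q 0.000304). SPT23 also rose in ArgonST (0.57, q 0.0304). OLE1, not called in OLE1met250, rose with the SPT23 fragment (1.11), with the MGA2 fragment (2.18), in ArgonST (0.72, q 0.0364) and in ArgonLT (3.20). LEU2 and LYS2, which BY4742 lacks, were listed at 0 in every comparison. HIS3 and URA3, also deleted or disrupted in BY4742, were not. HIS3 had values from -1.93 to 1.46 without a call. URA3 was tested only in the pairs that carried the plasmid pCM188. It fell with the SPT23 fragment (-0.72, q 0.00453) and had -0.52 with the MGA2 fragment (q 0.0555). These URA3 values cannot be assigned to the chromosomal gene. Of the mating pheromone genes, MF(ALPHA)1 fell in OLE1met250 (-1.47, q 0.000304), where MFA1 had -4.51 without a call (q 0.104).

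Of the 40 member values (8 genes, 5 comparisons), 17 were called higher, 3 lower and 20 were not called. The smallest called change was that of ITR2 in ArgonLT, at -0.59, and the largest that was not called was that of ITR1 with the SPT23 fragment, at 0.49 (q 0.194). In ArgonLT 6 members rose and 2 fell, where 24.1% of all tested genes rose and 18.4% fell. In OLE1met250, 5 rose and 1 fell, against 16.7% and 14.5% of all. Of the members, 4 rose and none fell with the MGA2 fragment, against 12.2% and 8.58% of all. With the SPT23 fragment 1 rose and none fell, against 6.86% and 5.49%, and in ArgonST 1 rose and none fell, against 4.86% and 2.41%. The single riser differed between these last comparisons, being INO1 with the SPT23 fragment and INO2 in ArgonST.

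**Figure D2:**
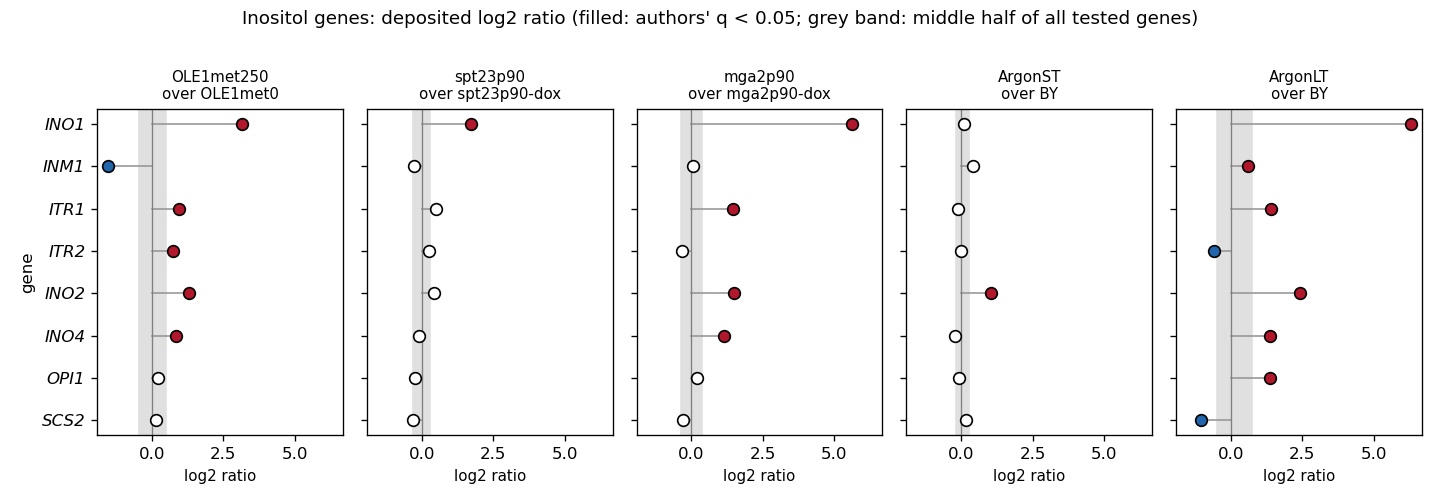
Deposited log2 ratio (x axis) of the 8 genes (y axis) in each of the 5 comparisons. Red circles were called higher and blue circles lower at a q under 0.05, open circles were not called, and the grey band is the interquartile range of all tested genes. INO1 lies farthest to the right in 4 panels, at up to 6.29, and only INO2 is called in ArgonST.

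INO1 (YJL153C, chromosome X, 134332 to 135933, minus strand, 1 coding exon), the inositol 3-phosphate synthase gene, had the widest range of the members, from 0.10 to 6.29. In ArgonLT it was 78.4-fold higher than in BY (log2 6.29, q 0.000304), the seventh-largest rise with a finite value among the genes called. With the MGA2 fragment it was 48.8-fold higher (log2 5.61, q 0.000304), in OLE1met250 8.84-fold higher (log2 3.14, q 0.000304) and with the SPT23 fragment 3.29-fold higher (log2 1.72, q 0.000304). After 90 min under argon its ratio was 1.08 (log2 0.10, q 0.809), and it was not called. INO1 thus rose in 4 of the 5 comparisons, with no rise called in ArgonST. The values with the MGA2 and the SPT23 fragment lie 3.89 apart on the log2 scale, and those of ArgonLT and ArgonST 6.19 apart. These differences come without an error and were not tested.

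INM1 (YHR046C, chromosome VIII, 197398 to 198285, 1 coding exon) encodes an inositol monophosphatase, which removes the phosphate in the step after INO1. It was called in the direction of INO1 in ArgonLT and in the opposite direction in OLE1met250. In OLE1met250, where INO1 rose, INM1 fell by 1.53 on the log2 scale and was 2.88-fold lower (q 0.000304). In ArgonLT it rose by 0.61 (q 0.0423), a value between the lower and upper quartile of all tested genes there. Its other log2 ratios were -0.27 with the SPT23 fragment (q 0.444), 0.05 with the MGA2 fragment (q 0.896) and 0.41 in ArgonST (q 0.195). The paralogous monophosphatase gene INM2 rose in ArgonLT by 0.79 (q 0.0485), and in OLE1met250 had 0.59 at a q of 0.0550. The coding sequences of INM1 and INM2 are 64.4% identical over 848 aligned bases, with a longest identical run of 9 bases.

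The transporter genes ITR1 (YDR497C, chromosome IV, 1443713 to 1445467) and ITR2 (YOL103W, chromosome XV, 124001 to 125830), which encode proton-coupled myo-inositol transporters of the plasma membrane, diverged. ITR1, the major transporter, rose with the MGA2 fragment by 1.45 (2.73-fold, q 0.000304), in ArgonLT by 1.41 (2.66-fold, q 0.000304) and in OLE1met250 by 0.95 (1.93-fold, q 0.00359). ITR2 rose in OLE1met250 by 0.72 (q 0.00634), fell in ArgonLT with -0.59 (1.50-fold lower, q 0.0245) and had -0.34 with the MGA2 fragment (q 0.218). Thus in ArgonLT the transporter genes were called in opposite directions, with values 2.00 apart on the log2 scale, and in OLE1met250 in the same direction, 0.22 apart. With the SPT23 fragment ITR1 had 0.49 (q 0.194) and ITR2 0.27 (q 0.339), and in ArgonST they had -0.11 (q 0.786) and 0.00 (q 0.995). Their coding sequences are 74.5% identical over 1746 aligned bases with a longest identical run of 24 bases, and no label or header says how reads that fit both were counted.

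INO2 (YDR123C, chromosome IV, 698554 to 699468) encodes the partner of the activator pair that carries its activation domains, and it rose in 4 comparisons. Its rise was 2.43 in ArgonLT (5.37-fold, q 0.000304), 1.50 with the MGA2 fragment (2.83-fold, q 0.000304), 1.30 in OLE1met250 (2.46-fold, q 0.00175) and 1.04 in ArgonST (2.05-fold, q 0.00789). With the SPT23 fragment it had 0.42 (q 0.336). The calls of INO2 and INO1 therefore differed in 2 comparisons, with INO2 alone called in ArgonST and INO1 alone with the SPT23 fragment. The difference between the 2 genes was not tested.

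INO4 (YOL108C, chromosome XV, 111431 to 111886) encodes the other subunit of the pair, which yeast needs for DNA binding together with Ino2. It rose by 1.35 in ArgonLT (2.55-fold, q 0.00175), by 1.14 with the MGA2 fragment (2.21-fold, q 0.0105) and by 0.85 in OLE1met250 (1.81-fold, q 0.00669). It had -0.10 with the SPT23 fragment (q 0.861) and -0.21 in ArgonST (q 0.712). INO2 lay above INO4 in each comparison, by between 0.35 and 1.25 on the log2 scale, with no test of that difference. YOL107W, which shares the INO4 element, rose in 4 comparisons, by 1.76 in ArgonLT, 1.26 with the MGA2 fragment, 1.18 in OLE1met250 and 0.86 with the SPT23 fragment.

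OPI1 (YHL020C, chromosome VIII, 66242 to 67456), the repressor gene, was called in ArgonLT alone, where it rose by 1.37 (2.59-fold, q 0.000304). There the repressor and the activator subunit INO4 had nearly the same log2 ratio, at 1.37 and 1.35, and INO1 still had the largest value of the members. Elsewhere OPI1 lay between -0.22 and 0.20, with a lowest q of 0.479. INO2 exceeded OPI1 in each comparison, by 0.64 with the SPT23 fragment and by 1.05 to 1.30 in the others, again without a test.

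SCS2 (YER120W, chromosome V, 401135 to 401869) encodes the membrane protein of the endoplasmic reticulum that binds Opi1. It fell in ArgonLT, by 1.06 on the log2 scale (2.08-fold lower, q 0.000304), and was called in no other comparison, with values between -0.29 and 0.17. In the table it shares its interval with YER119C-A, a row on the opposite strand. That row was tested only in OLE1met250 and with the MGA2 fragment, without a call, and thus was not tested in ArgonLT. No label or header says whether strand was used, so reads of this overlap cannot be assigned. In ArgonLT the tether gene SCS2 was thus lower and the repressor gene OPI1 higher than in BY. RNA values do not show where Opi1 lies in the cell.

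The members with and without the element were then set side by side. With the MGA2 fragment the 4 genes that hold CATGTGAA had log2 ratios from 1.14 to 5.61 and each was called higher. The 4 without these letters lay from -0.34 to 0.20 and none was called, so that the ranges did not overlap. Of all tested genes there 12.2% rose and 8.58% fell, so most genes were not called either. In OLE1met250 the genes with the element ranged from 0.85 to 3.14, all called higher. Those without it ranged from -1.53 to 0.72, where ITR2 was called higher and INM1 lower. Of all tested genes 16.7% rose and 14.5% fell in OLE1met250. In ArgonLT the ranges overlapped, at 1.35 to 6.29 with these 8 letters and -1.06 to 1.37 without them, since OPI1 rose without holding this exact spelling. They also overlapped with the SPT23 fragment, at -0.10 to 1.72 against -0.29 to 0.27, and in ArgonST, at -0.21 to 1.04 against -0.06 to 0.41. The division by sequence is a description of 8 chosen genes, was made after the values were seen and was given no test.

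Across the whole table the same element was followed with the MGA2 fragment as a count without a test. Of the 53 genes with CATGTGAA in the window, 49 were tested there and 21 (42.9%) rose while 2 (4.08%) fell, with a median log2 ratio of 0.62, against 12.7% higher, 8.92% lower and a median of -0.02 among all 5323 tested genes that have a window. Without the 8 described members and 13 other known Ino2-Ino4 target genes, 11 of 37 rose (29.7%), 2 fell and the median was 0.28. In OLE1met250, 20 of 51 rose (39.2%) and 9 fell (17.6%), with a median of 0.34, where 17.8% of all genes with a window rose and 15.6% fell. Without the listed genes 10 of 39 rose (25.6%) and 9 fell (23.1%) there, and the median was -0.03. In ArgonLT 15 of 48 rose and 7 fell (median 0.34), where 1350 of 5406 genes with a window rose. Without the listed genes 8 of 36 rose in ArgonLT (22.2%, against 24.8% of all windows without them) and 7 fell, with a median of 0.11. The rising share in this window was thus not above that of all genes, but this depended on the search. Also without the listed genes, it was 29.5% for the element in 600 bases and 32.3% for the 6-letter core in 300 bases. With the SPT23 fragment 10 of 48 rose (20.8%) and 2 fell (median 0.16), where 7.11% of all rose and 5.73% fell, and without the listed genes 8 of 36 rose (22.2%) and 2 fell (median 0.04). In ArgonST 3 of 47 rose (6.38%) and none fell (median 0.05), near the 5.06% of all that rose, and without the listed genes 2 of 35 rose. The 53 windows hold 50 element positions, because 5 positions lie in the windows of 2 neighbouring genes.

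**Figure D3:**
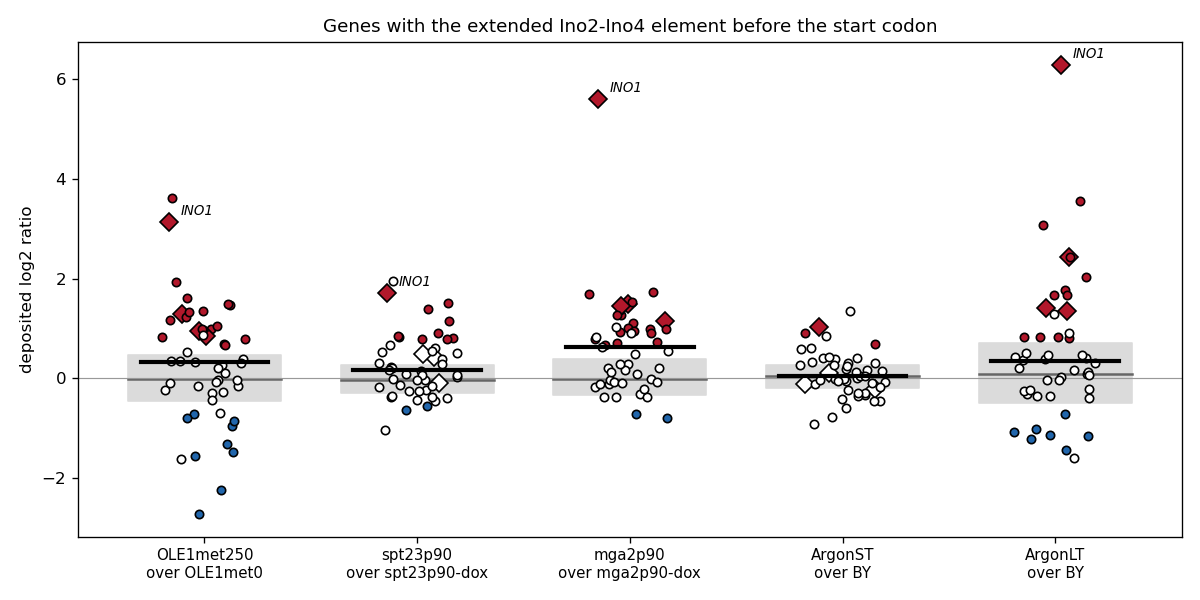
Deposited log2 ratio (y axis) of the tested genes whose 300 bases before the start codon hold the extended element, by comparison (x axis). Diamonds are INO1, ITR1, INO2 and INO4, circles are other genes, red was called higher, blue lower and white not called, black bars are the medians of the genes shown, and grey boxes and lines are the interquartile range and median of all genes with a window. The black bar lies highest with the MGA2 fragment, at 0.62.

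The other genes that Ino2 and Ino4 are known to activate were counted from a list of 13 in phosphatidylserine, phosphatidylethanolamine, phosphatidylcholine and fatty acid synthesis. Members of this list rose in 10 of 13 cases in OLE1met250 (median 1.22), 3 with the SPT23 fragment (median 0.29), 11 with the MGA2 fragment (median 0.91), none in ArgonST (median -0.05) and 6 in ArgonLT (median 0.41), and none was called lower in any comparison. Of all tested genes 16.7%, 6.86%, 12.2%, 4.86% and 24.1% rose in these comparisons, in the same order. The largest rises in OLE1met250 were those of ACC1, acetyl-CoA carboxylase, at 3.96, the fatty acid synthase genes FAS2 and FAS1 at 3.61 and 3.47, and CHO2, the phosphatidylethanolamine methyltransferase gene, at 1.61. Those with the MGA2 fragment were OPI3, the gene of the later methylation steps, at 1.77, CKI1, choline kinase, at 1.54, CHO1, phosphatidylserine synthase, at 1.00 and EKI1, ethanolamine kinase, at 0.99. In ArgonLT they were OPI3 at 2.88, FAS2 at 2.02, CKI1 at 1.67 and ACC1 at 0.95. With the SPT23 fragment OPI3 rose by 0.92, ACC1 by 0.84 and CHO1 by 0.80.

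INO1 exceeded every gene of that list with either fragment and in ArgonLT, whereas in OLE1met250 ACC1, FAS2 and FAS1 lay above its 3.14. The element was present in the windows of 8 of the 13. Presence did not match the calls gene by gene with the MGA2 fragment: CHO2 and CPT1 hold it and had 0.21 (q 0.566) and 0.09 (q 0.780), while EPT1, FAS1, ACC1, OPI3 and PSD1 do not hold these 8 letters in 300 bases and rose. The 6-letter core alone was present in 10 of the 13 within 300 bases and in 12 within 600 bases.

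**Figure D4:**
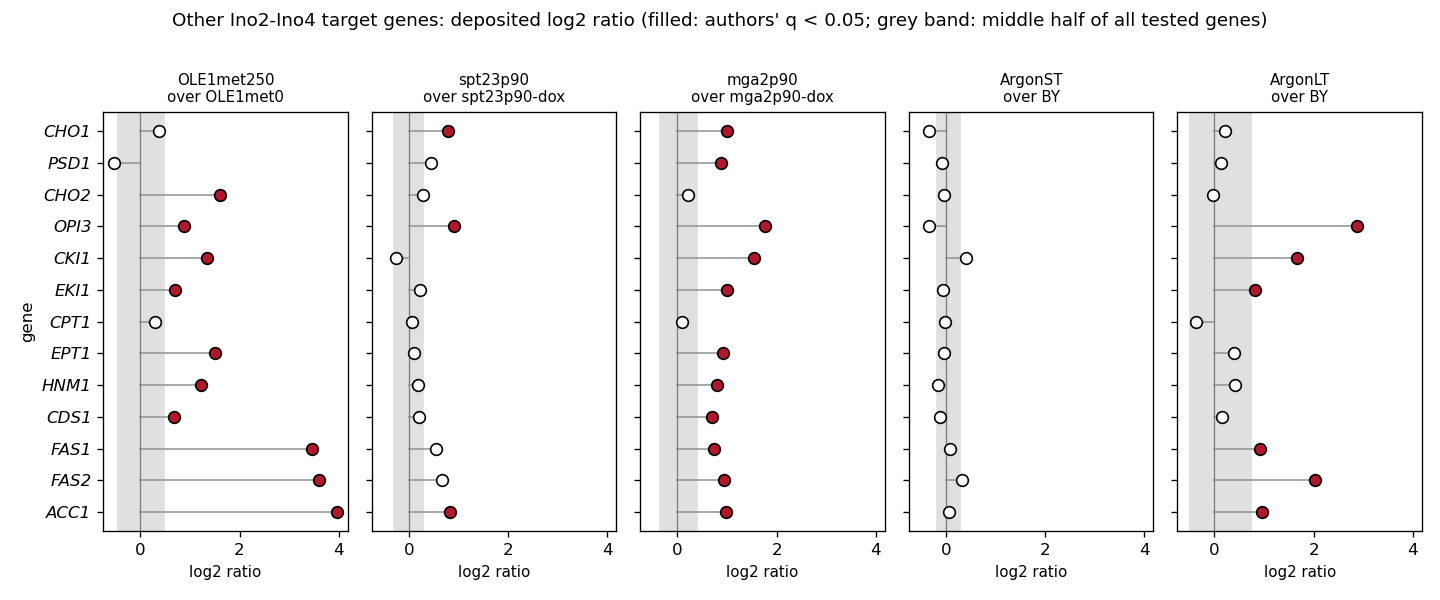
Deposited log2 ratio (x axis) of 13 other Ino2-Ino4 target genes (y axis) in the 5 comparisons. Red circles were called higher at a q under 0.05, open circles were not called, and the grey band is the interquartile range of all tested genes. With the MGA2 fragment 11 of 13 are filled, at 0.70 to 1.77, and in ArgonST none is.

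Genes known to act on INO1 from outside the Ino2-Ino4-Opi1 group were a list of 13. In OLE1met250, 6 of them rose and 1 fell (median 0.51), where 16.7% of all tested genes rose and 14.5% fell. The rises were led by UME6, which encodes the URS1-binding repressor, at 1.29, YET3 at 0.81, INO80, a chromatin remodelling ATPase, at 0.78 and REG1, a subunit of the phosphatase that opposes Snf1, at 0.73. SCS22, the paralogue of SCS2, was the one that fell, with -0.70. The corepressor gene TUP1 alone was called with the MGA2 fragment, at -0.81, where 12.2% of all tested genes rose and 8.58% fell. In ArgonLT TUP1 was 2.01-fold lower, SNF1 fell with -0.70 and YET1 rose by 0.56, that is 1 of 13 higher and 2 lower where 24.1% and 18.4% of all tested genes were. None of the 13 was called with the SPT23 fragment, where 6.86% of all rose and 5.49% fell, or in ArgonST, where 4.86% rose and 2.41% fell.

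A list of 5 was drawn up for inositol supply and salvage by other routes. The reactions given below for GDE1 and TAM41 do not name inositol, so their values are not a measure of its supply. GIT1, the glycerophosphoinositol transporter gene, was not tested outside OLE1met250. PLB3, a phospholipase B that acts on phosphatidylinositol, fell with the MGA2 fragment (-1.35) and in ArgonLT (-1.28) and rose in OLE1met250 (0.78). GDE1, a glycerophosphocholine phosphodiesterase gene, rose in OLE1met250 by 0.98 and in ArgonLT by 1.26. TAM41, which makes CDP-diacylglycerol in mitochondria, was called in no comparison, and its values lay between -0.11 and 0.23. Of this list 2 of 5 rose in OLE1met250, where 16.7% of all tested genes rose. With the MGA2 fragment 1 of 4 tested fell, against 8.58% of all. In ArgonLT 2 of 4 tested rose and 1 fell, against 24.1% and 18.4%.

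Genes that use phosphatidylinositol had called log2 ratios of at most 1.94 in size. Of 14 genes of phosphoinositide kinases, phosphatases and phospholipase C, 4 rose and 1 fell in OLE1met250 (median -0.07; 16.7% and 14.5% of all tested genes), with the phosphatase gene YMR1 at -0.95 and the kinase gene STT4 at 0.86. In ArgonLT 4 of 14 rose (median 0.40), a share near the 24.1% of all tested genes, with LSB6 at 1.33, VPS34 at 0.88, FAB1 at 0.79 and MSS4 at 0.58. Both VPS34 (0.72) and INP53 (0.68), 2 of 12 tested, rose with the MGA2 fragment, where 12.2% of all tested genes rose. In ArgonST SAC1, the phosphatidylinositol 4-phosphate phosphatase gene, rose by 0.77, as 1 of 13 tested, where 4.86% of all rose. None of 13 was called with the SPT23 fragment, where 6.86% of all rose and 5.49% fell. Of 6 inositol polyphosphate genes, IPK1 and KCS1 rose with the SPT23 fragment, by 1.25 and 0.57, where 6.86% of all tested genes rose, and no other call was made.

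Among 5 genes of phosphatidylinositol transfer proteins, CSR1 rose in OLE1met250 (1.94), with the MGA2 fragment (0.68) and in ArgonST (0.69) and fell with the SPT23 fragment (-0.56). SEC14, the founding member, rose in OLE1met250 by 0.93 and fell in ArgonLT (-0.95), where SFH5 also fell (-1.06) and PDR16 rose by 0.83. PDR17 fell with the MGA2 fragment (-0.99) and rose in ArgonST by 0.76. Of the 5, 2 rose in OLE1met250 and 2 in ArgonST, where 16.7% and 4.86% of all tested genes rose. With the MGA2 fragment 1 rose and 1 fell, against 12.2% and 8.58% of all. In ArgonLT 1 rose and 2 fell, against 24.1% and 18.4%. With the SPT23 fragment 1 fell, against 5.49%. Among 7 genes of inositol sphingolipid synthesis and breakdown, 5 rose in OLE1met250 (median 0.65), where 16.7% of all tested genes rose, led by ISC1, an inositol phosphosphingolipid phospholipase C, at 1.34. ISC1 also rose with the MGA2 fragment (1.33) and in ArgonLT (1.32). KEI1, a subunit of inositol phosphorylceramide synthase, fell with the MGA2 fragment (-0.62) and in ArgonLT (-0.97) and rose with the SPT23 fragment by 0.76, where SUR1 rose by 0.75. In ArgonLT SUR1 rose by 1.53 and IPT1 by 1.12. Of the 7, 3 rose and 1 fell in ArgonLT, against 24.1% and 18.4% of all tested genes. With the MGA2 fragment 1 rose and 1 fell, against 12.2% and 8.58%. With the SPT23 fragment 2 rose, against 6.86%.

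Genes most like INO1 were found by Euclidean distance over its 5 log2 ratios, among 3510 other genes with finite values in all 5 comparisons and a call in at least 1. The nearest were FHN1 at a distance of 2.91, BIO3, of biotin synthesis, at 3.35, TDH1, a glyceraldehyde 3-phosphate dehydrogenase gene, at 4.14, IZH2 at 4.19 and YGL039W at 4.59. FHN1 had 3.67 in OLE1met250, 1.89 with the SPT23 fragment, 3.24 with the MGA2 fragment, 1.46 in ArgonST and 5.47 in ArgonLT, and was thus lower than INO1 with the MGA2 fragment and higher in ArgonST. The nearest to ITR1 were ARN1, a siderophore transporter gene, at 0.36, IML3 at 0.43, PPQ1 at 0.48, AAD6 at 0.54 and YNL024C at 0.59. The closest gene to INO1 was farther from it than any of these was from ITR1. Such distances depend on the size of the ratios, which reach 6.29 for INO1 and 1.45 for ITR1. By Pearson correlation INO1 itself was at rank 4 among the genes nearest to ITR1 (r 0.978). The distances rest on 5 comparisons, 2 of which share their reference libraries.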

How the data were processed

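Transcripts of 9 groups of Saccharomyces cerevisiae, 3 libraries each, were grouped by sample title. The submitters' processing notes name Trimmomatic 0.33, TopHat2 2.0.14, Cuffdiff 2.2.1 and build R64, with settings not given in the sources used here. Per the file headers, the deposited values are a log2 ratio and a q value (an adjusted p-value) for each gene and comparison. No value per library was used, so no test, replicate check or depth estimate was made.

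A q of 1 was read as not tested, and a gene was called when its q was below 0.05. An absolute log2 of 10 or more was read as a group at 0 and left out of medians, ranks and distances. Members and lists were chosen with earlier results of these data known. One member is not reported here, and the counts of members leave it out. SFH1 was taken off the list of transfer proteins after the data were seen, because the table uses that name for a chromatin remodelling subunit. Named genes are the other members, at most 4 called genes per list and comparison with the largest change, and the 5 genes nearest to INO1 and to ITR1. Genes named for their promoter element, for not being called, as the one gene of a list in its direction, or for their position were chosen after their values were seen.

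Positions and sequences are from the RefSeq R64 genome. Member starts in the deposited table were 1 base lower, as in a 0-based count, except for SCS2, whose interval is merged with an overlapping row. Scripts used Python 3.11.15, pandas 2.3.3, numpy 2.4.6 and Biopython 1.88, and the counting and distance steps were tested on simulated data. The alternatives were a q under 0.01 or 0.10, a minimum absolute log2 of 1, centring on the median, and another measure of likeness. The promoter search and its alternatives were added after the data were seen.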

Additional observations from a re-analysis of the deposited data

How the results depend on the processing

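No paired analysis was possible because the deposited table gives 1 value per comparison and no value per library, and for the same reason no replicate could be left out. All 40 member values kept their call at a q under 0.10 and when the median of all tested genes was subtracted, which changed the sign of 1 value that was not called. At a q under 0.01, 3 calls were lost: INO4 with the MGA2 fragment, and INM1 and ITR2 in ArgonLT. With a minimum absolute log2 of 1, 5 calls were lost, so that OLE1met250 had 3 called members in place of 6. Summed over the 5 comparisons, that minimum left 13 of 30 calls for the other Ino2-Ino4 targets, 3 of 6 for other inositol supply, 2 of 11 for other regulators, 1 of 12 for phosphoinositide enzymes, 1 of 2 for inositol polyphosphates, 2 of 10 for transfer proteins and 5 of 13 for inositol sphingolipids. At a q under 0.01, 7 calls were left for other regulators, 7 for phosphoinositide enzymes and 0 for inositol polyphosphates. With Pearson correlation in place of distance, 0 of 5 genes nearest to INO1 and 1 of 5 nearest to ITR1 were shared. Chosen after seeing the data, the share of element genes that rose with the MGA2 fragment was 33.3% in 600 bases and 22.3% for the 6-letter core, in place of 42.9%. The depth is unknown, so what a larger library would call cannot be given.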

Other observations

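Genes outside the listed targets that hold the extended Ino2-Ino4 element and rose in at least 3 comparisons were, beside YOL107W, the genes USB1, YJR008W, ARG4, CSR1, HTD2 and YEL073C. They were picked by their values in the authors' deposited table, from 41 element genes outside the listed ones, and carry no test. Others of the 41 went the other way. BIM1 fell in OLE1met250 (-0.72), with the MGA2 fragment (-0.71) and in ArgonLT (-1.07), and RPL33B fell in the last 2 of these (-0.79 and -1.44). In OLE1met250, 10 of 39 tested rose and 9 fell. The share of all genes that rose in at least 3 comparisons was not counted. YJR008W had log2 ratios of 0.98 in OLE1met250, 1.16 with the SPT23 fragment, 1.73 with the MGA2 fragment and 2.43 in ArgonLT, each called. USB1 rose in the same 4 comparisons, and its element is the one that also lies in the window of CKI1. ARG4, of arginine synthesis, rose by 1.68 with the MGA2 fragment and by 3.56 in ArgonLT but fell in OLE1met250, with -2.73. HTD2, a mitochondrial fatty acid synthesis dehydratase gene, rose by 1.38 with the MGA2 fragment and by 1.67 in ArgonLT. SAG1, the alpha-agglutinin gene, rose with the SPT23 fragment (1.40) and the MGA2 fragment (0.99) and fell in OLE1met250 (-2.24).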
